A study of Mus musculus with 31 samples.

Results

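The genes described here are 9 regulators of G-protein signalling (RGS genes), Rgs2, Rgs4, Rgs8, Rgs16, Rgs6, Rgs7, Rgs10, Rgs14 and Rgs20, of 17862 genes with a symbol that were tested on the arrays. They were taken by name: each RefSeq accession on the array that belongs to a member was looked up, and the brightest probe stood for the gene. RNA came from the nucleus accumbens (NAc) and the medial prefrontal cortex (mpFC) of adult female DBA2/J (DBA) and C57BL/6J (C57) mice that carry no transgene. All were 12 weeks old by the sample labels and had either gone through repeated cross-fostering (RCF), in which a whole litter was handed to a new dam once a day on postnatal days 1 to 4, or belonged to control litters that were lifted out daily and put back with their own dam. The 8 groups were DBA NAc RCF (4 samples), DBA NAc control (4), DBA mpFC RCF (3), DBA mpFC control (3), C57 NAc RCF (4), C57 NAc control (2), C57 mpFC RCF (4) and C57 mpFC control (3). The labels allow up to 2 mice of 1 litter in a group and do not say which samples share a litter or a mouse, so p-values measure the spread between these samples.

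RGS proteins speed up the hydrolysis of GTP by the alpha subunit of heterotrimeric G proteins and so shorten the signal of the receptors that activate them. In the striatum and the cortex they act on the pathways of dopamine, opioid, muscarinic, serotonin and glutamate receptors. Rgs2, Rgs4, Rgs8 and Rgs16 belong to the R4 subfamily of small RGS proteins, Rgs6 and Rgs7 to the R7 subfamily, whose proteins pair with the G-beta subunit encoded by Gnb5, Rgs10 and Rgs14 to the R12 subfamily, and Rgs20 to the RZ subfamily, known for its action on the G protein encoded by Gnaz.

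Promoter sequences are shown for the members with 1 listed gene start whose level differed between the regions in DBA mice or between the strains. Each line gives the 250 bases before the gene start from RefSeq, build GRCm38.p6, 5′ to 3′ along the gene's strand; capitals mark the cyclic AMP response element half-site TGACG or its reverse complement CGTCA, and the TATA box TATAAA or its reverse complement TTTATA.
Rgs2, chr1:144004150-144004399, strand -: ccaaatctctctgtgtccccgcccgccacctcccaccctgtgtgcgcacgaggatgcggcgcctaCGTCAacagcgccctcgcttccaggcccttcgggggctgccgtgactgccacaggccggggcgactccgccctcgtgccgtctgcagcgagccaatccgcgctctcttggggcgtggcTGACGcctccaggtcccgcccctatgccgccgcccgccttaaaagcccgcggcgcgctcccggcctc
Rgs4, chr1:169747643-169747892, strand -: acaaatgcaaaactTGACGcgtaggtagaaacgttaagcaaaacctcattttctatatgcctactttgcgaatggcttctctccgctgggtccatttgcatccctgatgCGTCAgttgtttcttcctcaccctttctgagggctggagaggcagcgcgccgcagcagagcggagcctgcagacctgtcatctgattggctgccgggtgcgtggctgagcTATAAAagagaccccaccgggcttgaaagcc
Rgs6, chr12:82617249-82617498, strand +: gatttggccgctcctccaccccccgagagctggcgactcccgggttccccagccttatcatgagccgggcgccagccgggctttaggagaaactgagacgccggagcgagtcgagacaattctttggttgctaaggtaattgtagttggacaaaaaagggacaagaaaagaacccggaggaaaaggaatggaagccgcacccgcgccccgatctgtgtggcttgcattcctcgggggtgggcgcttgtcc
Rgs7, chr1:175492546-175492795, strand -: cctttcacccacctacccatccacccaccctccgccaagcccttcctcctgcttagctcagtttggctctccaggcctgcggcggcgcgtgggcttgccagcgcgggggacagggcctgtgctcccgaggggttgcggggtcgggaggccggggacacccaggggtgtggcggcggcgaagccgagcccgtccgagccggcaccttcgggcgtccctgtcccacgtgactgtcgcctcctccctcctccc
Rgs10, chr7:128418173-128418422, strand -: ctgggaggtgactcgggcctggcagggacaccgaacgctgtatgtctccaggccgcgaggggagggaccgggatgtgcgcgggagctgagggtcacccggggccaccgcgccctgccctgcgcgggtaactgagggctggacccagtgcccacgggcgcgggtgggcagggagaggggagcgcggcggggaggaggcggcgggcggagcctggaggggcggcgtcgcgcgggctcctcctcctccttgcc
Rgs2, which was higher in the NAc, and Rgs4, which was lower there, each had 2 half-sites in this window, 185 and 67 bases before the start in Rgs2 and 236 and 141 bases before it in Rgs4. The Rgs4 window also held a TATA box 31 bases before the start. The Rgs6, Rgs7 and Rgs10 windows held neither motif. Of 32851 windows of this length in the RefSeq table, 17.8% held the half-site and 12.4% the TATA box. The table lists 3 starts for Rgs8, 1 of them with a half-site 46 bases upstream, and 1 start for Rgs16 with neither motif; Rgs14 and Rgs20 were not matched.

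Levels are log2 signals less the 75th percentile of the array, so each unit is a doubling of signal, and a level of 1 gene is not set against that of another. The scanner files are listed with samples in a way that disagrees with the authors' value table: for 29 of 31 arrays the file listed with a sample equals the table's column of another sample, and for 27 of them of another group. Each file was therefore given the sample of the column it correlates with best. This reading was chosen after the values had been seen, and the results depend on it: with the scanner files as listed, 0 of the 9 members and 0% of all 30292 features differed between the regions in DBA mice, where 6 members and 56.6% of features did with the table's reading. Between RCF and control, 1 member in the C57 mpFC and 2 in the DBA mpFC differed as listed, where 28.1% and 21.1% of features did, against 0 members and 0% of features with the table's reading. In these comparisons the member counts under the listing were near or under its background. Between the strains they were 6 of 9 in the NAc, where 40.7% of features differed, and 4 of 9 in the mpFC, where 32.6% did. Which reading holds the true samples was not tested. In 4 pairs of arrays of 1 group the arrays differed by little more than spots of 1 array do (1.47 to 2.18 times, against 4.12 to 12.1 times in the other pairs), and each pair was averaged and counted as 1 sample, which left 27. All 15 probes of the 9 members were well above background on all 31 arrays, with none saturated; over all probes, 58.6% to 81.9% were well above background per array.

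Marker genes went against a label in 6 of the 27 samples, which are called in doubt here. The mean of 16 genes of striatal projection neurons minus the mean of 12 genes of cortical excitatory neurons lay between 3.39 and 6.52 in the NAc samples not in doubt and between −2.33 and −0.21 in the mpFC samples not in doubt. It was −1.55 in C57 NAc control 1 and 3, −1.23 in C57 NAc RCF 1, 3.92 in C57 mpFC RCF 1 and 3.27 in C57 mpFC control 3, the side of the other region in each case. The strain markers (mean of Glo1 and Gabra2 minus Gpnmb) of DBA NAc control 4 and DBA mpFC control 1 were 7.26 and 5.35, among the C57 samples (5.12 to 7.65) and apart from the other DBA samples (10.68 to 12.48). DBA mpFC control 1 also had Xist, expressed in female cells, at −6.03, against −0.43 or more in the other samples. The members called in each comparison are given with and without these samples. Each of the 4 slides held 1 strain and 1 region with both treatments, so that slide cannot be told apart from strain or region, whereas RCF and control samples shared a slide.

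**Figure D1:**
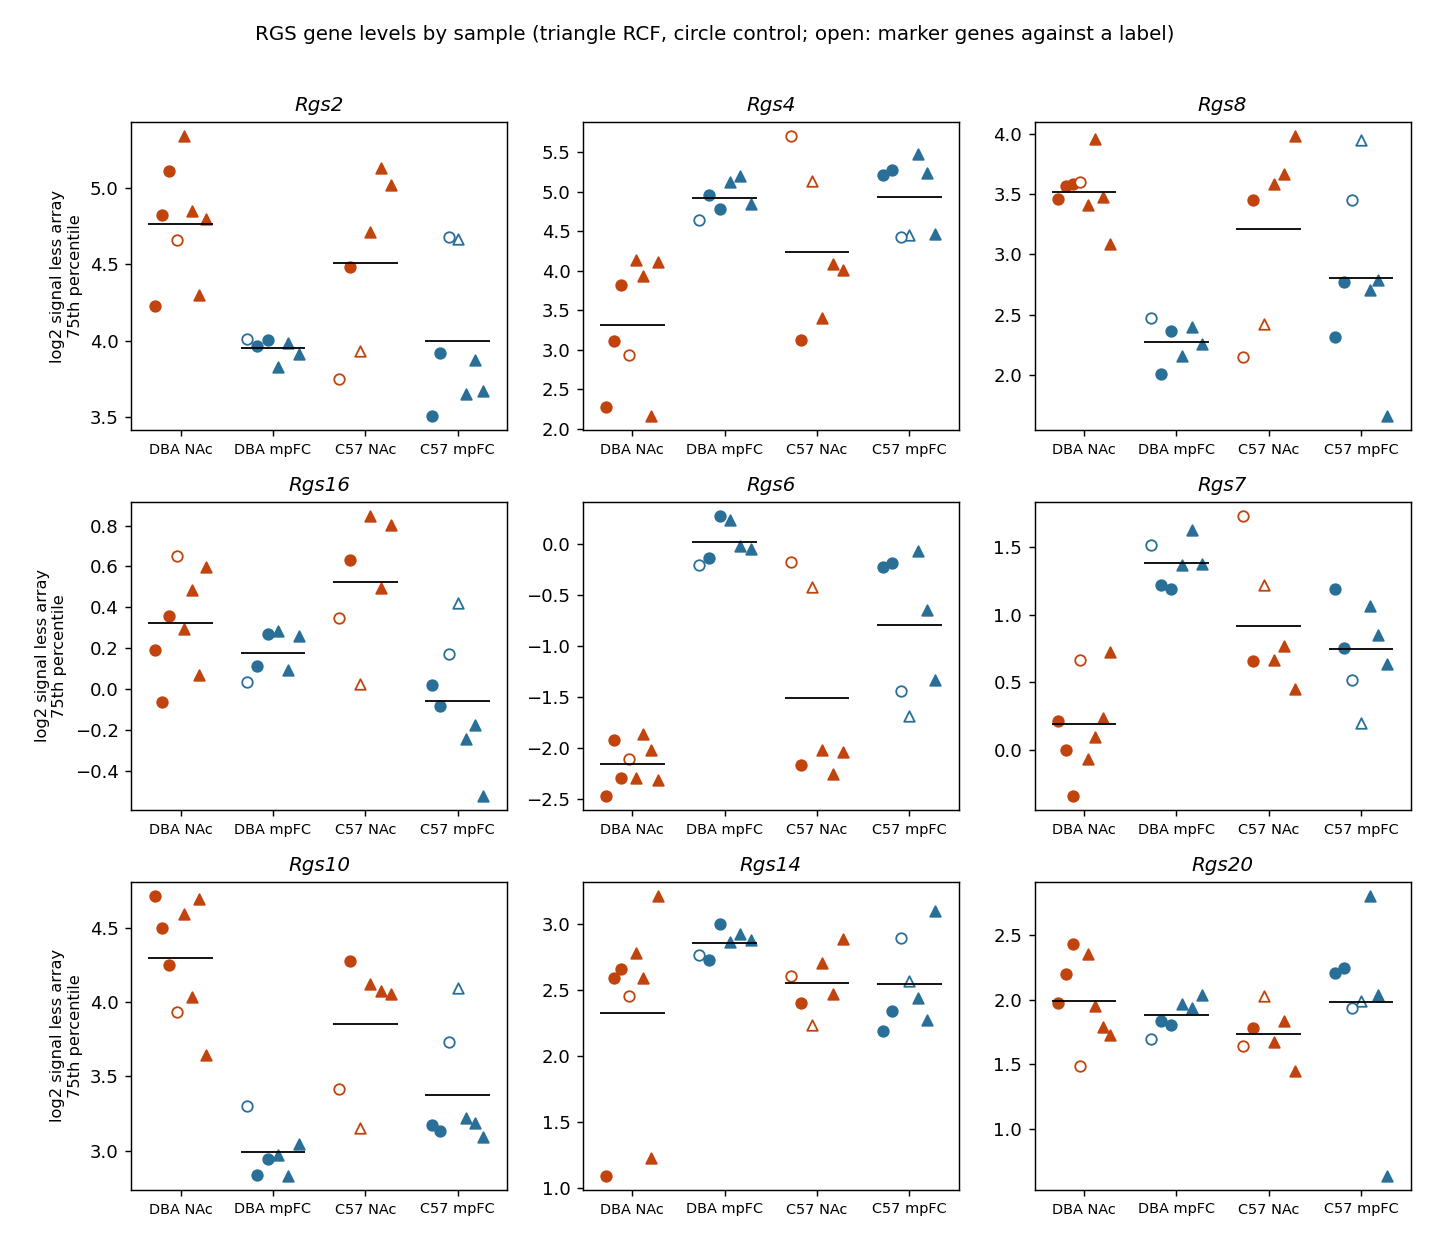
Level of each of the 9 RGS genes in every sample (y axis, log2 signal less its array's 75th percentile; the scale differs between panels), by strain and region, with NAc in red and mpFC in blue. Triangles are RCF samples, circles control samples, open symbols the 6 samples in doubt, and bars the means; in DBA mice Rgs6 lies between −2.47 and −1.86 in the NAc and between −0.20 and 0.28 in the mpFC.

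The first question was how the RGS genes differ between the NAc and the mpFC. In DBA mice 6 of 9 members differed: Rgs2, Rgs8 and Rgs10 were higher in the NAc, and Rgs4, Rgs6 and Rgs7 were lower there. The values of the regions did not overlap for any of these 6. The share of all features without overlap is not given here, so this is not read as a trait of the RGS genes. Of all 30130 features tested, 56.6% differed in this comparison (20.1% higher and 36.5% lower in the NAc), so that the share of members that differed was near the background and the genes and their directions are what these values show. The median difference of the members was 0.11 and that over all features was −0.12 (median size, regardless of sign, 1.19 and 0.44). In bulk tissue fewer cells of a type and less RNA per cell cannot be told apart.

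Among the R4 genes in DBA mice, Rgs8, which acts on Gi and Go signals, had levels of 3.09 to 3.96 in the NAc (median 3.52, n = 8) and 2.00 to 2.47 in the mpFC (median 2.31, n = 6). The difference was 1.24 ± 0.28 (SE), a fold of 2.37, with an adjusted p of 0.000822 in limma. Rgs2, which prefers the Gq alpha subunit, was at 4.23 to 5.34 in the NAc (median 4.81, n = 8) and 3.83 to 4.01 in the mpFC (median 3.97, n = 6). Every NAc sample lay above every mpFC sample, and the spread was much wider in the NAc (SD 0.37) than in the mpFC (SD 0.071). Rgs2 differed by 0.81 ± 0.22 (adjusted p = 0.00302), and by 0.71 with an adjusted p of 0.07 within the control mice alone.

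Rgs4, a brain-rich regulator of Gi and Gq signals, went the other way. Its levels in DBA mice were 2.16 to 4.14 in the NAc (median 3.47, n = 8) and 4.65 to 5.21 in the mpFC (median 4.90, n = 6). It was 3.07-fold lower in the NAc, a difference of −1.62 ± 0.37 (adjusted p = 0.000752). The NAc samples were uneven for this gene (SD 0.81, against 0.21 in the mpFC), with DBA NAc RCF 3 at 2.16 and DBA NAc control 1 at 2.27. Rgs16, also of the R4 group, had levels of −0.06 to 0.65 in the NAc and 0.03 to 0.28 in the mpFC, which overlap; it differed by 0.15 ± 0.15 (adjusted p = 0.407).

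Both R7 genes were lower in the NAc of DBA mice. Rgs6 was at −2.47 to −1.86 in the NAc (median −2.20, n = 8) and at −0.20 to 0.28 in the mpFC (median −0.03, n = 6). Its difference of −2.18 ± 0.31, a fold of 4.53, was the largest of the 9 members in size (adjusted p = 4.73e-06). Rgs7 was at −0.34 to 0.72 in the NAc (median 0.15) and at 1.19 to 1.63 in the mpFC (median 1.37), with a difference of −1.19 ± 0.19 (adjusted p = 1.57e-05). For Rgs6 the gap between the regions was wider than the range within either, and for Rgs7 the NAc samples ranged more widely than the gap.

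Of the R12 genes, Rgs10, a small RGS protein found in microglia and neurons, was at 3.64 to 4.72 in the NAc (median 4.37, n = 8) and at 2.83 to 3.30 in the mpFC (median 2.96, n = 6). It was 2.48-fold higher in the NAc, a difference of 1.31 ± 0.21 (adjusted p = 1.65e-05). Rgs14, which besides its RGS domain binds inactive Gi alpha subunits, was at 1.09 to 3.22 in the NAc (median 2.59) and at 2.73 to 3.00 in the mpFC (median 2.87). Its difference of −0.54 ± 0.25 missed the threshold (adjusted p = 0.0763), and passed without DBA NAc RCF 4 (−0.66, adjusted p = 0.0269), with array weights (−0.49, adjusted p = 0.0192) and with all arrays counted singly (−0.52, adjusted p = 0.0405). DBA NAc control 1 at 1.09 and DBA NAc RCF 3 at 1.22 lay more than 1 unit under the other NAc samples, and the same 2 samples had the lowest Rgs4 and the highest Rgs10 levels of all DBA NAc samples. Their striatal marker means were 1.65 and 1.76, against 3.05 or more in the other DBA NAc samples. DBA NAc RCF 4 had the highest Rgs14 (3.22) and the lowest Rgs10 (3.64) level of the DBA NAc. Its cortical marker mean was −0.18, against −1.28 or less in the other DBA NAc samples. The part of these marker levels in the RGS levels was not tested. Rgs20 did not pass the test (0.11 ± 0.21, adjusted p = 0.677), with levels of 1.49 to 2.43 in the NAc and 1.70 to 2.04 in the mpFC.

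Further probes gave the same directions in DBA mice where a called gene had one. The other probes of Rgs2 (0.95 ± 0.27), Rgs8 (1.52 ± 0.40), Rgs4 (−1.13 ± 0.32) and Rgs6 (−2.18 ± 0.26) passed the test, with adjusted p-values of 0.00504, 0.00266, 0.00463 and 4.5e-07. The other 2 probes of Rgs20 differed by −0.20 ± 0.17 and 0.27 ± 0.18 (adjusted p = 0.331 and 0.21), in opposite directions. Rgs7, Rgs10, Rgs14 and Rgs16 had 1 probe each. The other probes of Rgs2 and Rgs8 differed by 0.10 ± 0.29 and 0.74 ± 0.43 between the regions in C57 mice with all samples. Those of Rgs4 and Rgs6 differed by −0.59 ± 0.34 and −0.23 ± 0.28. None passed in limma (adjusted p = 0.853, 0.275, 0.277 and 0.627), and they were not tested without the samples in doubt.

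Marker lists moved with these differences. In DBA mice 15 of 16 striatal projection neuron genes were higher in the NAc and 12 of 12 cortical excitatory neuron genes lower, with mean levels of 1.65 to 3.56 in the NAc and −0.38 to 1.48 in the mpFC for the striatal list, and of −3.47 to −0.18 in the NAc and 1.59 to 2.02 in the mpFC for the cortical list. Of 9 oligodendrocyte genes 6 were higher and 1 was lower in the NAc (mean level 2.48 to 3.39 in the NAc and 1.48 to 3.23 in the mpFC). Of 10 microglia genes, set here beside Rgs10, 1 was higher and 6 were lower in the NAc (mean level 1.90 to 2.26 in the NAc and 2.20 to 2.44 in the mpFC). Of 8 astrocyte genes 3 were higher, of 10 vascular genes 1 was higher and 1 lower, and of 8 interneuron genes 3 were higher and 3 lower. The part of these cell types in the RGS differences was not tested.

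In C57 mice only Rgs16 passed the test with all samples. It was at 0.02 to 0.85 in the NAc (median 0.56, n = 6) and at −0.52 to 0.42 in the mpFC (median −0.08, n = 7). The ranges overlap, and the difference was 0.56 ± 0.16 (adjusted p = 0.0253), where 9.59% of all features passed. The call was lost without C57 mpFC control 2 (0.53, adjusted p = 0.0656), without C57 NAc control 2 and 4 (0.49, adjusted p = 0.134) and without C57 NAc RCF 2 (0.51, adjusted p = 0.0539), with normexp (0.46, adjusted p = 0.0764) and within control mice (0.45, adjusted p = 0.505). Without C57 NAc control 1 and 3 alone, Rgs4 (−1.30) and Rgs6 (−1.15) passed as well, with adjusted p-values of 0.0314 and 0.0309.

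The C57 comparison holds the 4 samples whose region markers went against the label. In them Rgs2, Rgs6, Rgs8 and Rgs10 lay nearer to the other region's C57 mean than to that of their label. These means leave out the samples in doubt. Rgs4 did so in the NAc samples (5.71 and 5.13) but not in the mpFC samples (4.43 and 4.45). The means of Rgs4 were 3.66 in the NAc and 5.14 in the mpFC. Rgs16 did so in C57 NAc RCF 1 (0.02) and C57 mpFC RCF 1 (0.42). It did not in C57 NAc control 1 and 3 (0.35) and C57 mpFC control 3 (0.17), with means of 0.69 and −0.20. C57 mpFC RCF 4, which is not in doubt, had an Rgs6 level (−1.34) almost as low as C57 mpFC control 3. Rgs6 was at −0.17 and −0.43 in C57 NAc control 1 and 3 and RCF 1, and at −2.17, −2.02, −2.26 and −2.04 in the other C57 NAc samples. In the C57 mpFC it was at −1.44 and −1.68 in control 3 and RCF 1, and at −0.23, −0.19, −0.07, −0.64 and −1.34 in the others. For Rgs10 these NAc samples were at 3.42 and 3.15, against 4.06 to 4.28 in the other NAc samples, and the mpFC samples at 3.73 and 4.10, against 3.09 to 3.22 in the other mpFC samples. Rgs7 was at 1.73 and 1.22 in these NAc samples, against 0.45 to 0.77 in the other NAc samples. It was at 0.52 and 0.20 in these mpFC samples, against 0.64 to 1.19 in the other mpFC samples. Rgs14 was at 2.60 and 2.23 in these NAc samples, against 2.40 to 2.89 in the other NAc samples. In these mpFC samples Rgs14 was at 2.89 and 2.57, within the range of the other mpFC samples (2.19 to 3.104). Rgs20 was at 1.65 and 2.03 in these NAc samples, against 1.45 to 1.84 in the others, and at 1.94 and 1.99 in these mpFC samples, within the others' range of 0.64 to 2.81.

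Without the samples in doubt, 6 of 9 members differed between the regions in C57 mice, where 25.5% of all features did. Rgs2 (1.00 ± 0.20), Rgs8 (1.14 ± 0.22), Rgs16 (0.84 ± 0.14) and Rgs10 (1.02 ± 0.18) were higher in the NAc, and Rgs4 (−1.68 ± 0.40) and Rgs6 (−1.69 ± 0.22) were lower. This compared 4 NAc with 5 mpFC samples, and only 1 C57 NAc control sample was left. The regions did not overlap for any of the 6, and the share of all features without overlap is not given here. The C57 samples had been left out for their region markers, so wider region differences without them are no separate evidence. Rgs7 differed by −0.27 ± 0.17 (adjusted p = 0.28), Rgs14 by 0.11 ± 0.37 and Rgs20 by −0.31 ± 0.31. In DBA mice the 6 members that passed were the same ones with and without the samples in doubt, at a background of 56.7% without them.

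**Figure D2:**
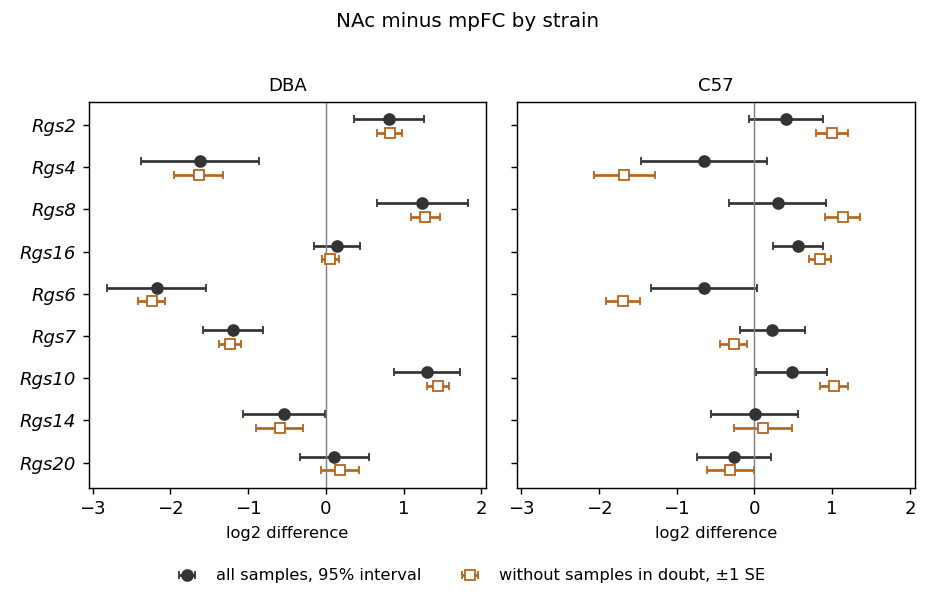
Difference between NAc and mpFC (x axis, log2, NAc minus mpFC) of the 9 RGS genes in DBA and C57 mice. Filled circles use all samples with 95% intervals, and open squares leave out the samples in doubt, with bars of 1 SE; in C57 mice Rgs6 is at −0.65 with all samples and at −1.69 without those in doubt.

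**Figure D3:**
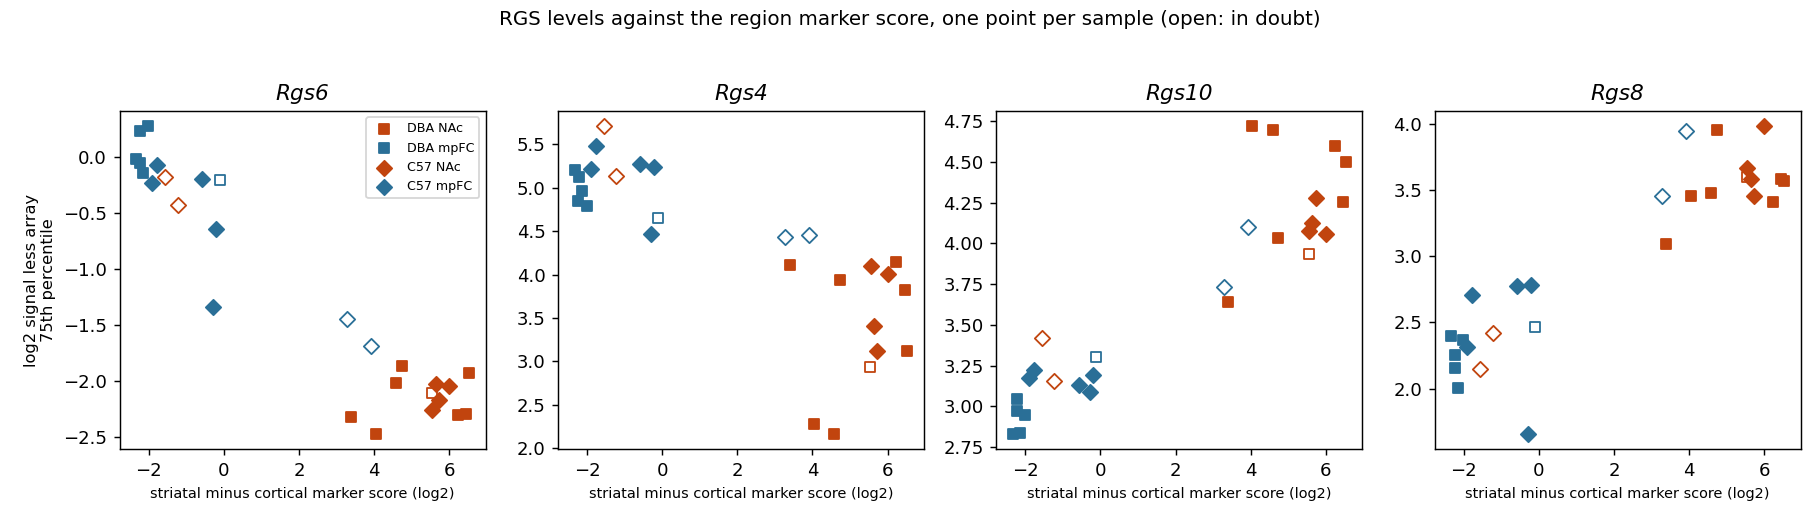
Levels of Rgs6, Rgs4, Rgs10 and Rgs8 (y axis, log2 signal less its array's 75th percentile) against the score of striatal minus cortical marker genes (x axis, log2), with 1 point per sample, squares for DBA, diamonds for C57, red for NAc and blue for mpFC labels and open symbols for samples in doubt. The open blue diamonds at scores of 3.27 and 3.92 have Rgs6 levels of −1.44 and −1.68, and the open red diamonds at −1.55 and −1.23 have levels of −0.17 and −0.43.

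Between the strains, Rgs7 was the member that differed in both regions with all samples, and in opposite directions. In the NAc it was at −0.34 to 0.72 in DBA mice (median 0.15, n = 8) and at 0.45 to 1.73 in C57 mice (median 0.72, n = 6). DBA was lower (−0.79 ± 0.19, adjusted p = 0.00323), where 31.9% of all features differed, and the ranges overlap. Without the samples in doubt the difference was −0.54 ± 0.16 (adjusted p = 0.0224, background 23.4%); without C57 NAc control 1 and 3 alone it was −0.52 (adjusted p = 0.0796), and within RCF mice −0.53 (adjusted p = 0.153). Some marker genes differed between the strains in the mpFC, where 48.1% of all features did. Of 16 striatal genes 0 were higher and 4 lower in DBA mice. Of 12 cortical genes 3 were higher and 0 lower, and of 9 oligodendrocyte genes 0 were higher and 4 lower. Without the samples in doubt the striatal mean was −0.38 to −0.09 in the DBA mpFC and −0.26 to 1.29 in the C57 mpFC. The part of these cell types in the strain differences was not tested. In the mpFC Rgs7 was at 1.19 to 1.63 in DBA mice (median 1.37, n = 6) and at 0.20 to 1.19 in C57 mice (median 0.75, n = 7). DBA was higher by 0.63 ± 0.19 (adjusted p = 0.00998), at a background of 48.1%, and the groups did not overlap. Without the samples in doubt this was 0.42 ± 0.15 (adjusted p = 0.0315, background 44.1%), and within control mice the call was lost (0.49, adjusted p = 0.217, background 24.2%).

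Rgs6 was higher in the mpFC of DBA mice, at −0.20 to 0.28 in DBA (median −0.03, n = 6) and −1.68 to −0.07 in C57 (median −0.64, n = 7). The other Rgs6 probe differed there by 1.32 ± 0.27 in limma with all samples (adjusted p = 0.000339). For the brightest probe the groups overlap, and the difference of 0.79 ± 0.32 was close to the threshold (adjusted p = 0.0447). The call was lost in 9 of the 13 fits that left out 1 sample, down to 0.59 without C57 mpFC control 3. It was also lost with the replicate block (0.78, adjusted p = 0.0597), with quantile normalization (0.77, adjusted p = 0.0553), without a filter on dim probes (0.79, adjusted p = 0.0502), within control mice (0.60, adjusted p = 0.378) and within RCF mice (0.99, adjusted p = 0.0819), and was 0.51 ± 0.19 (adjusted p = 0.0375) without the samples in doubt. In the NAc, Rgs6 (−0.73 ± 0.32, adjusted p = 0.084), Rgs4 (−0.98 ± 0.38, adjusted p = 0.0523) and Rgs10 (0.45, adjusted p = 0.113) missed the threshold. When the samples in doubt were left out they differed by −0.04, −0.15 and 0.18, with adjusted p-values of 0.912, 0.81 and 0.471. Rgs4 in the NAc passed in 5 of the 14 fits that left out 1 sample, at −1.62 without C57 NAc control 2 and 4 and at −1.11 to −1.06 without C57 NAc RCF 2, DBA NAc RCF 1, DBA NAc RCF 4 or DBA NAc control 3. It also passed with quantile normalization (adjusted p = 0.0453), without a filter on dim probes (0.0448), with all arrays counted singly (0.0319) and in the deposited table (0.0491), all with the samples in doubt. The other Rgs4 probe differed in the NAc by −0.54 ± 0.33 in limma with all samples (adjusted p = 0.225). Without C57 NAc control 2 and 4 the only C57 NAc control sample left is one in doubt. Rgs6 (−1.23) and Rgs10 (0.66) also passed without C57 NAc control 2 and 4, and Rgs10 (0.55) without DBA NAc RCF 4. The samples in doubt mattered the other way for Rgs16. Without them it was lower in DBA than in C57 mice in the NAc (−0.41 ± 0.13, adjusted p = 0.0276) and higher in the mpFC (0.37 ± 0.12, adjusted p = 0.018); with them it differed by −0.19 and 0.22 (adjusted p = 0.34 and 0.229). Rgs2, Rgs8, Rgs14 and Rgs20 passed in neither region with either set of samples. Rgs8 passed in the mpFC (−0.72, adjusted p = 0.029) when C57 mpFC RCF 4 alone was left out. The other Rgs8 probe differed there by −0.0023 ± 0.41 in limma with all samples (adjusted p = 0.997). With array weights, Rgs8 (−0.56), Rgs14 (0.49), Rgs10 (−0.36) and Rgs16 (0.26) passed in the mpFC, at a background of 63.7%. Their adjusted p-values were 0.00954, 0.0254, 0.0241 and 0.0392.

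**Figure D4:**
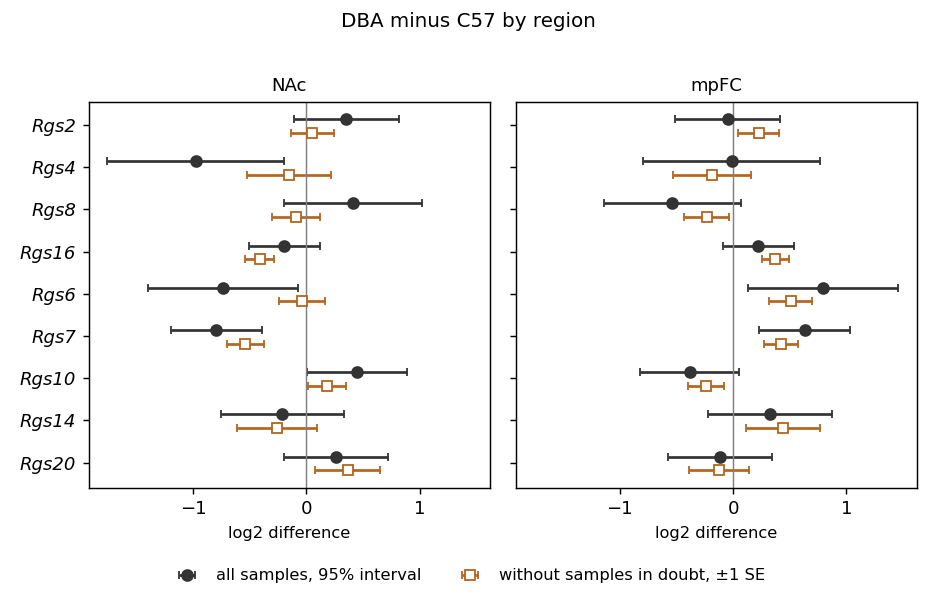
Difference between the strains (x axis, log2, DBA minus C57) of the 9 RGS genes in the NAc and the mpFC. Filled circles use all samples with 95% intervals and open squares leave out the samples in doubt, with bars of 1 SE; Rgs7 lies at −0.79 in the NAc and at 0.63 in the mpFC with all samples.

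Whether the strain difference depended on the region was tested as an interaction, the DBA minus C57 difference in the NAc minus that in the mpFC. Rgs7 (−1.43 ± 0.27, adjusted p = 0.000479), Rgs6 (−1.53 ± 0.45, adjusted p = 0.0138) and Rgs10 (0.83 ± 0.30, adjusted p = 0.0389) passed, at a background of 31.4%. Without the samples in doubt, at a background of 18.7%, Rgs7 (−0.96 ± 0.22, adjusted p = 0.00633) passed again and Rgs16 (−0.78 ± 0.18, adjusted p = 0.00529) passed, while Rgs6 was at −0.55 ± 0.28 (adjusted p = 0.182) and Rgs10 at 0.42 ± 0.23 (adjusted p = 0.215). Rgs7 passed in all 27 fits that left out 1 sample (−1.70 to −1.16), and within the RCF mice alone (−1.30, adjusted p = 0.016) and the control mice alone (−1.55, adjusted p = 0.0191). Rgs10 lost its call in 12 of the 27 fits. It also lost it with normexp (adjusted p = 0.0546), with quantile normalization (0.0824), in the deposited table (0.0634), within control mice (0.252) and within RCF mice (0.15). For Rgs6 the other probe gave −1.94 ± 0.38 in limma with all samples (adjusted p = 0.000561), and the values that follow are those of its brightest probe. Rgs6 lost its call without C57 NAc control 1 and 3 (−1.03, adjusted p = 0.096), within control mice (−1.63, adjusted p = 0.133) and within RCF mice (−1.43, adjusted p = 0.104). Rgs8 (0.95, adjusted p = 0.0849), Rgs4 (−0.96, adjusted p = 0.173) and Rgs20 (0.38, adjusted p = 0.367) missed the threshold with all samples, and without the samples in doubt they were at 0.15, 0.04 and 0.49 (adjusted p = 0.766, 0.968 and 0.415). Rgs8 passed without C57 NAc control 2 and 4 (1.27), without C57 mpFC RCF 4 (1.13), with array weights (0.95) and with all arrays counted singly (0.99). Rgs4 passed without C57 NAc control 2 and 4 (−1.61), and Rgs20 without C57 mpFC RCF 4 (0.58) and with array weights (0.63). The other probes of Rgs8 (0.78 ± 0.58, adjusted p = 0.32) and Rgs4 (−0.54 ± 0.47, adjusted p = 0.391) did not pass in limma with all samples. The other 2 probes of Rgs20 went the opposite way (−0.18 ± 0.24 and −0.05 ± 0.27, adjusted p = 0.602 and 0.909). Rgs16 was at −0.41 with all samples (adjusted p = 0.138) and passed with array weights (−0.61, adjusted p = 0.0164). The region difference of Rgs7 in C57 mice was 0.23 ± 0.20 with all samples, against −1.19 in DBA mice.

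The question of the treatment groups was whether RCF changed these genes. In limma 0 of 9 members passed in each of the 4 strain and region groups, and 0 of the 36 tests had an unadjusted p under 0.05. With array weights 0 of 9 passed as well. The background was 0.604% in the C57 NAc (182 features, and 0.00664% without the samples in doubt) and 0% in each of the other groups. The differences lay between −0.11 and 0.55 in the DBA NAc, between −0.09 and 0.26 in the DBA mpFC, between −0.52 and 0.61 in the C57 NAc and between −0.31 and 0.12 in the C57 mpFC. Leaving out the samples in doubt, 0 of 9 members passed in each group, and the differences lay between −0.25 and 0.51 in the DBA NAc, between −0.08 and 0.25 in the DBA mpFC, between −0.19 and 0.71 in the C57 NAc and between −0.48 and 0.34 in the C57 mpFC. In each group the widest 95% interval was that of Rgs4, in the C57 NAc from −1.47 to 0.96, and the narrowest that of Rgs16, in the DBA NAc from −0.32 to 0.47.

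Rgs8, with the largest RCF difference over all samples (0.61 ± 0.45 in the C57 NAc, adjusted p = 0.657), was at 2.42, 3.59, 3.67 and 3.98 in RCF mice and at 2.15 and 3.45 in control mice. The low value of each group is a sample in doubt, and without these the difference was 0.29 against 1 control sample. Rgs4 in the C57 NAc was at 5.13, 3.41, 4.09 and 4.01 in RCF mice and at 5.71 and 3.12 in control mice, where the first value of each group is the sample in doubt. Its difference was −0.26 ± 0.59 with all samples and 0.71 ± 0.62 without those in doubt (adjusted p = 0.908 and 1), the largest of the 36 without them. Rgs6 there differed by −0.52 with and by 0.06 without them. Rgs2 in the same tissue was at 3.93, 4.71, 5.13 and 5.02 in RCF mice and at 3.75 and 4.48 in control mice (0.58 ± 0.35, adjusted p = 0.56, the smallest of the 36). Rgs4 in the DBA NAc was at 4.14, 3.93, 2.16 and 4.11 in RCF mice and at 2.27, 3.12, 3.83 and 2.93 in control mice (0.55 ± 0.48, adjusted p = 1). These groups overlap. In the DBA mpFC the groups of Rgs20 did not, at 1.96, 1.94 and 2.04 in RCF mice and 1.70, 1.84 and 1.81 in control mice, a difference of 0.20 ± 0.32 (adjusted p = 1). The tests of whether the RCF difference depended on the strain or on the region called 0 of 9 members each, with 0 of all 30130 features.

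**Figure D5:**
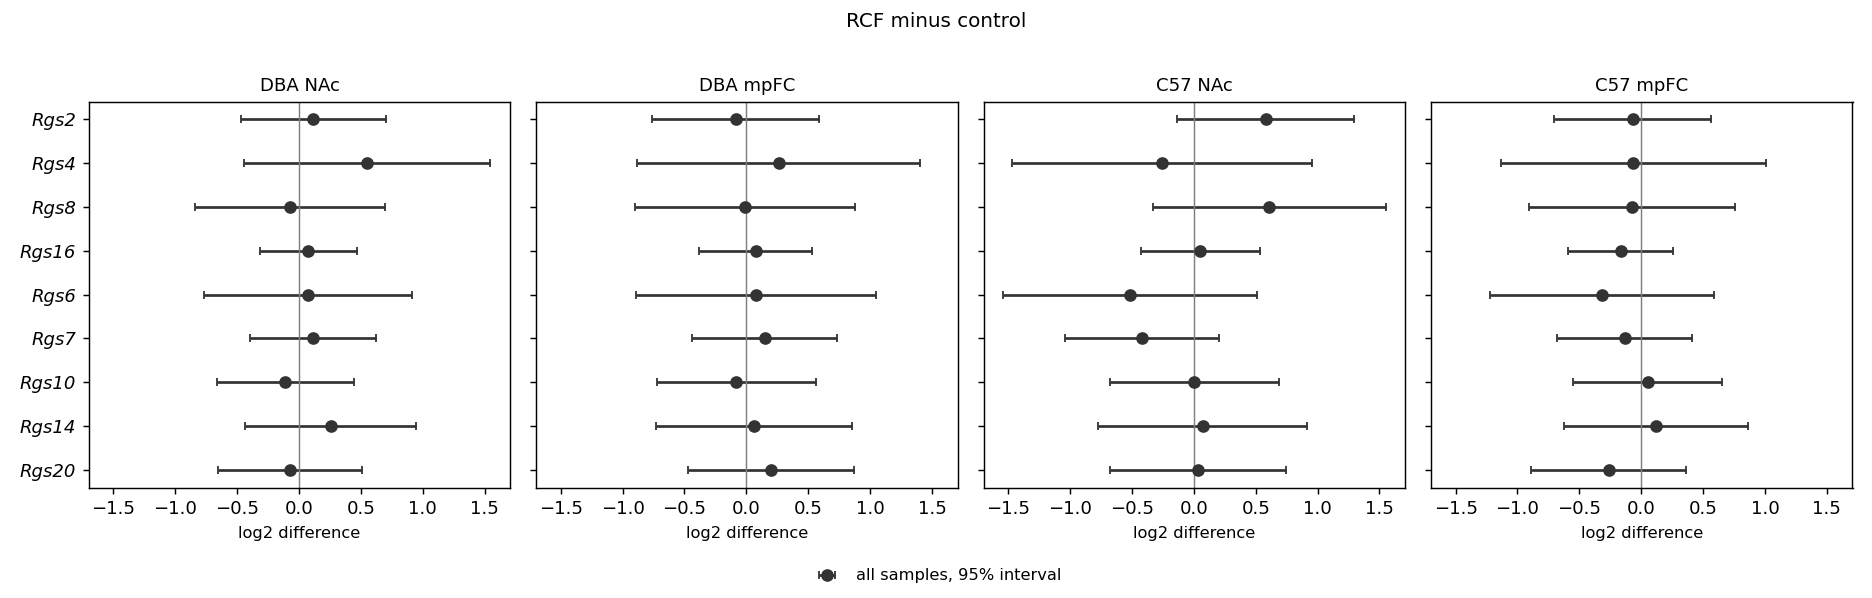
Difference between RCF and control samples (x axis, log2, RCF minus control) of the 9 RGS genes in the 4 strain and region groups, with 95% intervals from limma. Every interval includes 0.

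Genes of the same pathway were counted in the region comparison of DBA mice, with 56.6% of all features as the background. Of the 12 other RGS genes on the list, 9 were measured well enough to be tested, and 3 of these were higher and 2 lower in the NAc. Rgs9, the R7 member known as a striatal gene, was 15.0-fold higher in the NAc (3.91 ± 0.85, adjusted p = 0.00051), opposite in direction to Rgs6 and Rgs7. The lower ones, Rgs13 and Rgs21, were well above background on only 19 and 14 of 31 arrays, and no fold is given for them. Of 5 partners of R7 proteins 2 were higher and 2 lower: Gnb5 was at 3.63 in the NAc and 3.21 in the mpFC (0.42 ± 0.16, adjusted p = 0.0271; 0.0627 without the samples in doubt), Gpr179, an orphan receptor that anchors R7 proteins in the retina, was higher by 2.70 ± 0.44, and Rgs9bp, the membrane anchor of Rgs9 in the retina, was lower (−0.61 ± 0.12).

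Of 15 G-alpha genes, 3 were higher and 6 lower in the NAc. Gnai2 was higher (0.56 ± 0.10), and Gna15 (−1.03 ± 0.14) and Gnaz (−0.91 ± 0.19), the preferred substrate of Rgs20, were lower. Of 14 G-beta and G-gamma genes 5 were higher, such as Gnb4 (1.39 ± 0.26), and 6 lower, such as Gng13 (−1.09 ± 0.23). Of 17 adenylyl cyclases, phospholipases and potassium channels that G proteins regulate, 2 were higher and 7 lower; the channel gene Kcnj5 was higher (3.49 ± 0.64) and the cyclase gene Adcy2 lower (−1.50 ± 0.24). Of 23 Gi- and Gq-coupled receptors 8 were higher and 8 lower, among them the muscarinic receptor Chrm2 (2.07 ± 0.25), higher, and the glutamate receptor Grm2 (−1.70 ± 0.21), lower. The adjusted p-values of these named genes from Gpr179 on were 0.000461 or less. In this comparison no count of higher or lower genes in the pathway or marker lists moved by more than 2 without the samples in doubt. In each of the 4 RCF comparisons 0 genes of these lists passed, with and without those samples.

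The genes whose levels were most like each member's over the 27 samples were found among 14353 genes by Pearson's r, as a description, since the samples share region, strain and slide. Rgs6 was most like Boc and Acsl5 (r = 0.97 for both), Rgs10 most like Itih3 (0.97) and Txnl1 (0.96), and Rgs4 most like Synpo and Msra (0.96 for both). Rgs2 was most like Strn (0.96) and St8sia3 (0.95), Rgs8 most like Rbms3 and Fndc9 (0.94 for both), and Rgs7 most like Hunk (0.91) and Pex19 (0.89). Rgs14 went with Klf16 (0.93) and Pitpnm2 (0.90), Rgs20 with Pkp3 (0.99) and Impg1 (0.96), and Rgs16, the least tied, with Epha8 (0.79) and Slc16a3 (0.77). The lowest (0.64) and the highest (2.81) Rgs20 level of all samples were those of C57 mpFC RCF 4 and C57 mpFC RCF 2.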

How the data were processed

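RNA of 31 samples was labelled with Cy3 and hybridised to one-colour Agilent arrays. The deposited scanner files hold, per the file headers, an intensity for each spot made by Agilent Feature Extraction 10.7.3.1, background-subtracted and not normalized between arrays, with the median spot and background intensity and yes-or-no marks of outliers, saturation and signal well above background. The deposited value table holds log2 values of 30067 probes; each column equals 1 scanner file's log2 signal plus a constant (r of at least 0.999994, next best at most 0.9987). The submitters' processing notes name limma without its use.

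From these files, outlier spots and control spots were left out, log2 signals of a probe's spots were averaged, and the array's 75th percentile was subtracted. A probe was tested if it was well above background on 3 or more arrays of a group (43372 of 55681 probes, 30130 features after taking the brightest probe of a gene). Probes were named through RefSeq accessions (28026 probes, 21154 symbols); the files use an older genome build than the promoter table. Limma 3.58.1 in R 4.3.3 fitted 8 group means in 1 model, with an intensity trend, for 13 comparisons, and Benjamini-Hochberg adjustment over all features with a threshold of 0.05. The region and strain differences are means over RCF and control mice. The fit was tested on simulated data. Arrays give no read depth; precision is limited by how many samples a group has.

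Named besides the members were, per list and comparison, at most 3 genes past the threshold with the smallest p, and per member the 2 genes most alike. A gene that this rule also names is not reported here. The members, lists and tests were chosen with earlier results of these data known; the limit of 3 for near-duplicates was set after the ratios had been seen. Alternatives were normexp, quantile normalization, other filters and probe rules, single arrays, the files as listed, the deposited log2 table, array weights, a replicate block, samples left out and each treatment alone. The files were read with pandas 2.3.3 and numpy 2.4.6 under Python 3.11.15, and plots were drawn with matplotlib 3.10.9.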

Additional observations from a re-analysis of the deposited data

Results flagged for a closer look

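Dixon's test was run in groups of 4 samples, with a critical value of 0.829 of the group's range. In 5 of 36 tests the gap of a sample to the nearest other exceeded it. Chance gives about 1 in 20 for a single test. The tests of different genes share their samples and are not independent, so the count is not set against chance. Rgs4 was 2.16 in DBA NAc RCF 3, with the other 3 samples at 3.93 to 4.14. Rgs14 was 1.09 in DBA NAc control 1, with the others at 2.45 to 2.66. Rgs6 was −0.43 and Rgs10 was 3.15 in C57 NAc RCF 1, with the others at −2.26 to −2.02 and at 4.06 to 4.12. Rgs10 was 4.10 in C57 mpFC RCF 1, with the others at 3.09 to 3.22. Both C57 samples are among those whose region markers went against the label.

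The strain difference was not the same in the NAc and the mpFC, by the interaction test in limma, for Rgs6 (−1.53), Rgs7 (−1.43) and Rgs10 (0.83). Rgs7 kept this call without the samples in doubt, and Rgs6 and Rgs10 did not.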

How the results depend on the processing

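The 6 members called between the regions in DBA mice were 6 to 7 when 1 sample was left out, and each of the 6 passed in all 14 such fits. The count ran from 0 to 3 for the regions in C57 mice, from 1 to 2 for the strains in the mpFC, from 0 to 4 for the strains in the NAc and from 1 to 5 for strain by region, and was 0 throughout for RCF and its interactions. For the strains in the NAc it was 0 if C57 NAc control 1 and 3 was left out, 4 if C57 NAc control 2 and 4 was, 3 without DBA NAc RCF 4 and 2 without C57 NAc RCF 2, DBA NAc RCF 1 or DBA NAc control 3. For strain by region it was 1 if C57 NAc control 1 and 3 was left out, and 5 if it was C57 NAc control 2 and 4 or C57 mpFC RCF 4. For single members, leaving out 1 sample kept 1416 results on their side of the threshold, took 26 under it and 16 over it.

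For the regions in C57 mice the count of 1 became 0 with normexp, 6 without the samples in doubt, 3 with array weights and 0 within control mice, while the share of all features called, 9.59%, became 5%, 25.5%, 16.3% and 0.083%. For the strains in the mpFC the count of 2 became 1 with quantile normalization, without a filter on dim probes, with the replicate block and within RCF mice, 6 with array weights and 0 within control mice (48.1% of features, with 44.7%, 40.9%, 48.6%, 35%, 63.7% and 24.2% in the same order). For the strains in the NAc the count of 1 became 2 with quantile normalization, without the dim filter, with all arrays counted singly, with the deposited log2 table and without the samples in doubt, and 0 within RCF mice (31.9% of features, with 33.7%, 37.7%, 39.8%, 33.5%, 23.4% and 15.8%). For strain by region the count of 3 became 6 with array weights and 1 within control or within RCF mice (31.4% of features, with 34.9%, 9.69% and 16.5%). The replicate block changed no other count by over 1.5 times. Deviations of NAc and mpFC samples of 1 strain, treatment and replicate had r of −0.82 to 0.55 (median −0.04). The 12 pairs are too few to test pairing.

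With the scanner files as listed, 0 members were called between the regions in C57 or DBA mice and for strain by region (0% of features in each), 4 between the strains in the mpFC (32.6%), 6 between the strains in the NAc (40.7%), 1 for RCF in the C57 mpFC (28.1%), 2 for RCF in the DBA mpFC (21.1%), 2 for strain by RCF in the mpFC (13.6%) and 1 in the NAc (21%). Directions turned there for Rgs16 between the regions in C57 (−0.12) and the strains in the NAc (0.48), for Rgs7 between the regions in DBA (0.056), the strains in the mpFC (−0.53), RCF in the C57 mpFC (0.75) and the DBA mpFC (−1.0), strain by region (0.13) and strain by RCF in the mpFC (−1.75) and the NAc (−1.09), for Rgs10 between the regions in DBA (−0.074), the strains in the mpFC (0.89), RCF in the DBA mpFC (0.70) and strain by RCF in the mpFC (1.20), and for Rgs6 between the strains in the mpFC (−1.31). This listing mixes the groups of the value table. No direction of a called member turned under another alternative; changes of sign between values that were not called are not counted.

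The median difference over all features moved with the scaling. Between the regions in DBA mice it was −0.12, −0.02 with quantile normalization and 0.0033 with normexp, and 35.5%, 46.6% and 46.8% of the features called were higher in the NAc; the 6 members kept their directions and calls. With normexp the median went to −0.12 from 0.07 for the strains in the mpFC (37.9% in place of 60.3% higher) and to 0.13 from −0.09 for strain by region (57.8% in place of 31.5%, with 45.1% under quantile normalization); for the strains in the NAc 50.4% in place of 39.9% were higher under quantile normalization, and for the regions in C57 61.9% in place of 40.3% in the deposited log2 table and 30% with normexp. The lists of other genes were run with the 75th percentile only. Array signals near background limit what dim genes show; all members were well above it.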
